A study of Mus musculus with 2 samples.

Results

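Effector regulatory T cells (Tregs) are Tregs that have left the resting, lymphoid-homing state and carry receptors and suppressive molecules for use in tissue. The 8 genes described here, Prdm1, Id2, Maf, Batf, Irf4, Tbx21, Runx2 and Runx3, encode transcriptional regulators known from that change of state. They were taken by symbol from the 32285 genes listed, and each symbol matched 1 row. Batf and Irf4 bind DNA together downstream of the antigen receptor and are needed for effector Tregs to form. Prdm1 encodes Blimp-1, a repressor found in terminally differentiated effector cells, and Maf and Prdm1 both favour interleukin-10. Id2 blocks DNA binding by E proteins, Tbx21 encodes T-bet of type 1 responses, and the Runx proteins act as dimers with Cbfb.

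The 10x Chromium 3' kit was used on splenic Tregs, with 1 library for each genotype, sorted on viability, CD4, GFP and tdTomato. CD25KO mice had the genotype CD25FL/FL-tdTomato+/+-Foxp3eGFPCretERT2+/+, with floxed alleles of CD25, the interleukin-2 receptor alpha chain encoded by Il2ra. CD25WT mice had the genotype CD25WT/WT-tdTomato+/+-Foxp3eGFPCretERT2+/+. All mice carried the reporter and the tamoxifen-dependent Cre made by Foxp3-expressing cells, and all received tamoxifen at 2 mg/kg by intraperitoneal injection on 5 days. Each library pools 2 spleens, collected at day 10 from induction. No age of the mice is stated in the sources used here. The CD25KO sort alone had a further gate, which kept cells low in CD25. Each group is 1 library, so no difference was tested and every interval below is a 95% interval for counting error only.

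With cells kept at 500 or more detected genes and no more than 10% mitochondrial transcripts, 6952 CD25KO and 6110 CD25WT cells were kept, with a median of 4150 and 5229 unique molecular identifiers (UMIs, each standing for 1 captured transcript). Cells of other lineages left aside, 6869 CD25KO and 6025 CD25WT cells were counted as T cells. Il2ra was at 32.6 CPM (a gene's UMIs scaled to a fixed total per library) in CD25KO and 126 CPM in CD25WT, and Foxp3 at 21.7 and 34.5 CPM. Ribosomal protein genes took 31.1% of the T cell UMIs in CD25KO and 39.5% in CD25WT. Summed markers of B cells were at 438 CPM in CD25KO and 243 CPM in CD25WT (6 of 11 higher in CD25KO), of plasma cells at 91.2 and 57.2 CPM (7 of 7), and of erythroid cells at 135 and 541 CPM (1 of 8). Their part in the results below was not tested. The libraries had 107 barcodes in common.

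In the CD25KO library all 8 factors were at least 1.5-fold higher than in the CD25WT library, against 10.5% of the 7125 genes whose mean reached 10 CPM. All but Runx3 were at least 2-fold higher, against 3.59% of genes. Maf had 22720 UMIs or 644 CPM (636 to 652) in CD25KO and 7183 UMIs or 206 CPM (201 to 210) in CD25WT, a log2 ratio of CD25KO over CD25WT of 1.65 (1.61 to 1.69). Batf was at 187 CPM (183 to 192) in CD25KO and 61.2 CPM (58.6 to 63.9) in CD25WT, a log2 ratio of 1.61 (1.54 to 1.69). Id2 was at 231 CPM (226 to 236) in CD25KO and 83.5 CPM (80.5 to 86.5) in CD25WT, a log2 ratio of 1.47 (1.41 to 1.53). For none of these 3 did the counting intervals of the libraries overlap, but the share of all genes with intervals apart was not taken.

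The other factors rest on fewer transcripts. Prdm1 had 789 UMIs or 22.4 CPM (20.8 to 24.0) in CD25KO and 220 UMIs or 6.30 CPM (5.49 to 7.19) in CD25WT, a log2 ratio of 1.83 (1.61 to 2.05). Runx2 was at 28.3 CPM (26.6 to 30.1) in CD25KO and 7.10 CPM (6.24 to 8.04) in CD25WT, a log2 ratio of 1.99 (1.79 to 2.20). Tbx21 was the sparsest, with 305 UMIs or 8.65 CPM (7.70 to 9.67) in CD25KO and 72 UMIs or 2.06 CPM (1.61 to 2.60) in CD25WT. Its log2 ratio of 2.07 (1.69 to 2.46) was the highest of the 8, and its mean lay under the minimum of 10 CPM that the other 7 passed. The smallest ratios were those of Irf4 and Runx3. Irf4 was at 24.2 CPM (22.6 to 25.9) in CD25KO and 11.9 CPM (10.8 to 13.1) in CD25WT, a log2 ratio of 1.02 (0.85 to 1.19). Runx3 was at 51.1 CPM (48.7 to 53.5) in CD25KO and 27.3 CPM (25.6 to 29.1) in CD25WT, a log2 ratio of 0.90 (0.79 to 1.02).

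**Figure D1:**
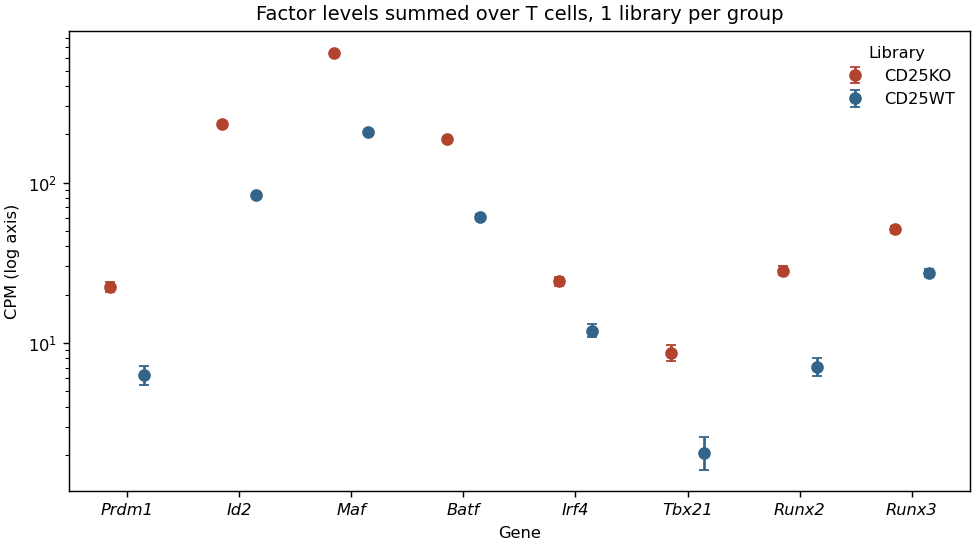
Level of each factor in CPM (log axis) summed over the T cells of the CD25KO library (left point of each pair) and the CD25WT library (right point), with 95% Poisson intervals. In every pair the CD25KO point lies above the CD25WT point and the intervals do not overlap. The share of all genes with intervals apart was not taken.

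These ratios depend on how the libraries are scaled. The median log2 ratio over all genes was 0.21. With the trimmed mean of M values (TMM) it was -0.02, and the genes at least 1.5-fold apart were 393 higher and 255 lower in place of 750 higher and 106 lower. With TMM all 8 factors were still at least 1.5-fold higher, against 5.52% of genes. Among cells without an Il2ra UMI, 6044 in CD25KO and 3918 in CD25WT, all 8 factors were at least 1.5-fold higher, against 9.26% of genes there, between 0.74 for Runx3 and 1.82 for Runx2 on the log2 scale.

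The genes lie on 7 different chromosomes of mm10 and are protein coding. Positions are Prdm1 chr10:44437177-44528501 (minus strand), Id2 chr12:25093799-25097140 (minus), Maf chr8:115682942-115707794 (minus), Batf chr12:85686669-85709087 (plus), Irf4 chr13:30749226-30766976 (plus), Tbx21 chr11:97098071-97115331 (minus), Runx2 chr17:44495987-44814797 (minus) and Runx3 chr4:135120652-135177990 (plus). Only Id2 and Prdm1 share any stretch of 31 bases in the last 1000 bases of their transcripts with another gene (2.25% and 0.412% of such stretches). Exons of Maf and Runx2 overlap antisense genes, and the sources used here do not say whether strand was used in counting, so those values could include antisense reads.

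Promoter windows (250 bases before to 50 after the start, GRCm38.p6 from RefSeq) were found for 7 of the 8 genes, with a second window for Runx3 that held none of the motifs below. The RUNX hexamer TGTGGT, searched on both strands, was in the windows of Batf, Runx2 and Runx3, against 16.7% of all 32544 windows. Those 3 are shown because the Runx factors are themselves members, and Batf and Runx2 kept the highest ratios at a fixed mix of states below. Each line gives the 250 bases before the start, 5' to 3' on the gene's strand, with the hexamer on either strand in capitals.
Batf (chr12:85686470-85686719, plus): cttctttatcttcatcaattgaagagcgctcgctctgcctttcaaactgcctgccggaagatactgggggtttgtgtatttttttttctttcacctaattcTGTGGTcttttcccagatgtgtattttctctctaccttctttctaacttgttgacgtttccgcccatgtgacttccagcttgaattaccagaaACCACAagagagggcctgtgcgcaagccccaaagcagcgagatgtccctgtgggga
Runx2 (chr17:44814628-44814877, minus): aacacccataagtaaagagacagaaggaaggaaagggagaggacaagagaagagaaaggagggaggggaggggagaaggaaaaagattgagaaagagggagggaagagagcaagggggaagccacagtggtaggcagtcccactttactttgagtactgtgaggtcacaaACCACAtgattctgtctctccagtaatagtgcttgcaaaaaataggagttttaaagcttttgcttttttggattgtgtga
Runx3 (chr4:135120395-135120644, plus): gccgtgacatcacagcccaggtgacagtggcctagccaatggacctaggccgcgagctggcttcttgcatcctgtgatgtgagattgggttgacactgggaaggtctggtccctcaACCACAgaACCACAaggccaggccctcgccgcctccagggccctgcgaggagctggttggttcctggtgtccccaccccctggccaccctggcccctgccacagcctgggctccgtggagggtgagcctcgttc
The hexamers begin 149 and 56 bases before the start of Batf, 80 bases before that of Runx2 (with others 23 and 31 bases after it), and 134 and 126 bases before that of Runx3. The IRF motif (a pair of GAAA with any 2 bases between them), the T-box letters GGTGTGA and the STAT letters TTCNNNGAA, which 3.45%, 3.95% and 8.33% of all windows hold, were in none of the members' windows. Prdm1 and Irf4 each held 1 of the remaining motifs. The AP-1 letters TGANTCA, held by 7.79% of all windows, were in the window of Prdm1. The Blimp-1 letters GAAAGTG (4.84% of all windows) were in the window of Irf4, and the MAF half-site TGCTGA (19.5%) in that of Runx3. These letters may overlap each other, and a match is a description of the sequence and not a bound site.

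States were clusters of both libraries together, built without the 8 factors and without Il2ra, and called "-like" from markers. Of 14 T cell clusters, 9 had at least 100 cells in both libraries. The central-like clusters, led by Satb1 and by Jchain, held 3.09% and 3.48% of the CD25KO T cells and 23.8% and 21.4% of the CD25WT T cells. The effector-like cluster led by Ccl5, Lilrb4a and Fgl2 held 16.6% of CD25KO and 1.88% of CD25WT. The recently stimulated-like cluster led by Egr2 held 13.4% and 7.40%, the follicular regulatory-like cluster led by Sostdc1 5.69% and 1.96%, and the interferon-response-like cluster led by Ifit3 5.44% and 6.61%. Clusters without a name were led by Capn3 (17.8% and 8.13%), by Il18r1, Rora and Axin2 (13.7% and 11.97%) and by Ces2c, Cst7 and Tox2 (11.4% and 4.32%). The gate on low CD25, applied to the CD25KO library alone, can set these shares.

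The factors did not share 1 pattern over the states. Prdm1 was highest in the Ccl5-led effector-like cluster, at 85.1 CPM (380 UMIs) in CD25KO and 76.7 CPM (35 UMIs) in CD25WT. It was at 20.2 CPM or lower in each of the other 8 states. Id2 was also highest there, at 441 CPM in CD25KO and 263 CPM in CD25WT, and was low in follicular regulatory-like cells, at 61.9 and 75.9 CPM. Maf was highest in follicular regulatory-like cells, at 1361 CPM in CD25KO and 1289 CPM in CD25WT, and in the Ccl5-led effector-like cells, at 1304 and 1171 CPM. So Id2 and Maf parted in follicular regulatory-like cells, where Maf had its highest level and Id2 one of its lower levels.

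Batf and Irf4, the pair tied to antigen receptor signals, were highest in recently stimulated-like cells of the CD25KO library. Batf was at 398 CPM there in CD25KO and 156 CPM in CD25WT, and Irf4 at 90.6 and 63.1 CPM. Irf4 was at most 23.7 CPM in each other state of CD25KO and at most 19.7 CPM in each other state of CD25WT, whereas Batf was spread more widely. In CD25WT the state with the most Batf was follicular regulatory-like, at 199 CPM, against 248 CPM in CD25KO.

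The Runx factors and Tbx21 were spread otherwise. Runx3 was highest in the Il18r1-led cluster of CD25KO, at 83.3 CPM there and 65.5 CPM in CD25WT, and in the Ccl5-led effector-like cells, at 62.1 and 65.8 CPM. Runx2 was highest in the Ccl5-led effector-like cells, at 43.5 CPM in CD25KO and at 28.5 CPM (13 UMIs) in CD25WT. Tbx21 had at most 11.6 CPM in any of the 9 states of CD25KO and at most 6.40 CPM in CD25WT. In the Ccl5-led effector-like cells Tbx21 had 52 UMIs in CD25KO and 0 in CD25WT, where a floor of 3 counts over the state stands at 6.58 CPM. In central-like cells all of Prdm1, Irf4, Tbx21 and Runx2 were at 7.16 CPM or lower in both libraries.

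**Figure D2:**
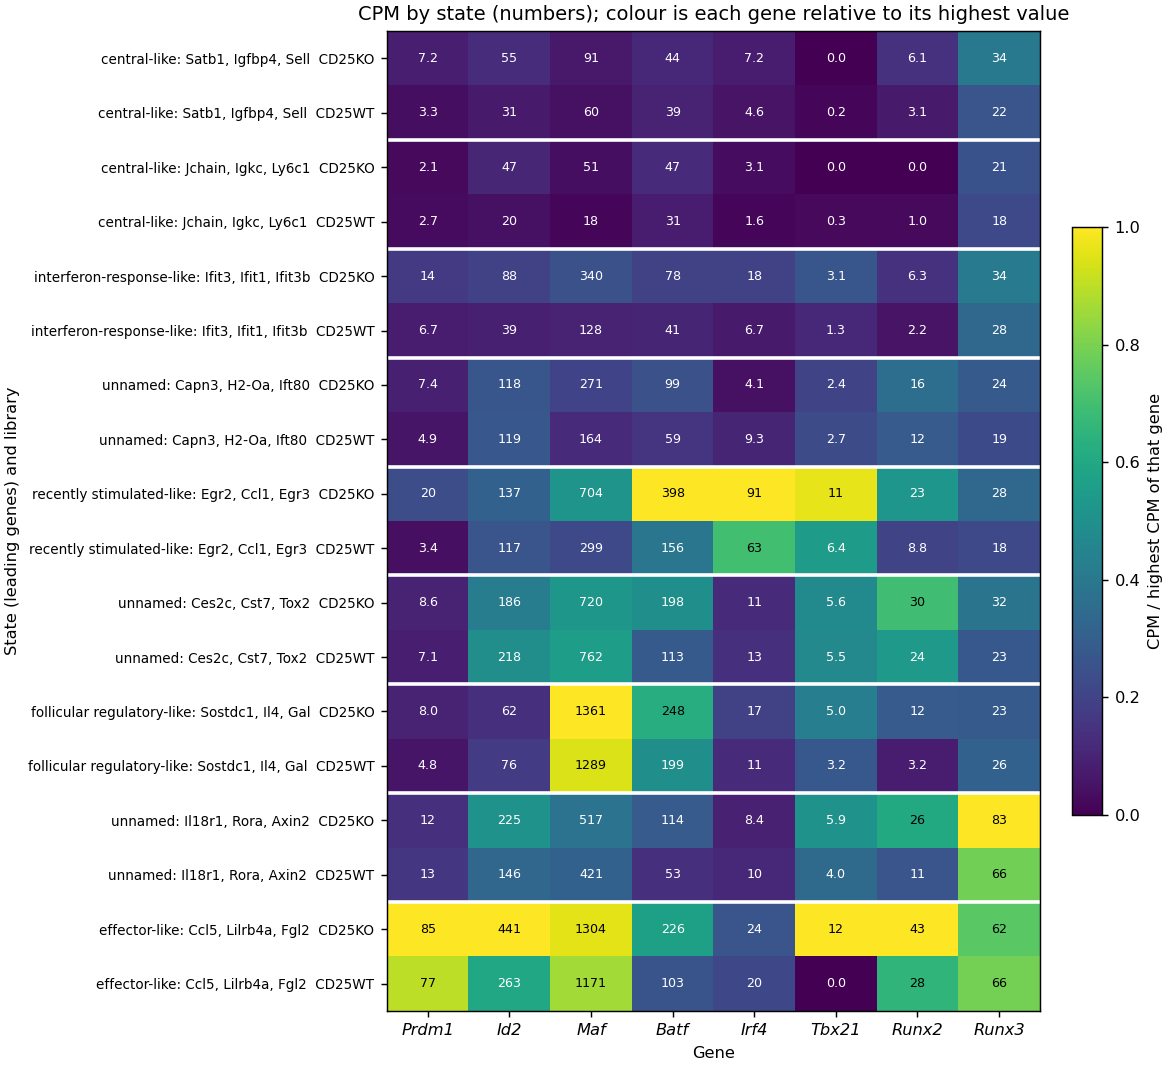
Level in CPM (number in each cell) of the 8 factors in the 9 states with at least 100 cells in both libraries, CD25KO above CD25WT, with colour giving the level relative to the highest value of that gene. Prdm1 stands out in the Ccl5-led effector-like cells, Irf4 in the recently stimulated-like cells, Maf in follicular regulatory-like and effector-like cells, and Runx3 in the Il18r1-led and effector-like cells.

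UMIs of the factors in barcodes of other lineages give a reference for background. Whether they are free RNA in the droplets or come from doublets was not tested. The 13 erythroid-like cells of CD25KO held Maf at 185 CPM (122 to 269), Batf at 123 CPM (73.1 to 195) and Id2 at 110 CPM (62.7 to 178). The 18 of CD25WT held them at 42.3 CPM (19.3 to 80.2), 37.6 CPM (16.2 to 74.0) and 28.2 CPM (10.3 to 61.3). The levels of these 3 genes in central-like cells were within or below those intervals in both libraries and are not told apart from background here. In CD25KO the same holds for Batf and Id2 in interferon-response-like cells (77.7 and 87.7 CPM) and in Capn3-led cells (98.6 and 118 CPM), for Batf in Il18r1-led cells (114 CPM), and for Id2 in recently stimulated-like (137 CPM) and follicular regulatory-like cells (61.9 CPM). Batf in CD25KO lay above its erythroid-like interval in 4 of the 9 states, the recently stimulated-like, Ccl5-led, Ces2c-led and follicular regulatory-like cells. In erythroid-like cells this background was higher in CD25KO, with a log2 ratio of 2.13 (0.999 to 3.40) for Maf, 1.96 (0.53 to 3.60) for Id2 and 1.72 (0.44 to 3.13) for Batf. In B-like cells (46 and 44 cells) it was not higher beyond counting error. The log2 ratios there were -0.01 (-1.49 to 1.44) for Maf, -0.28 (-1.10 to 0.53) for Id2 and 0.55 (-1.16 to 2.36) for Batf. The part of background in the ratios of these genes was not tested. Prdm1 and Irf4 had 0 UMIs in the 31 erythroid-like cells, which allows a share of cells with a UMI of up to 9.68% (3 counts over the unthinned cells). Their intervals there were 0 to 25.3 CPM in CD25KO and 0 to 17.3 CPM in CD25WT. Both genes lay within them over all T cells. Prdm1 also did in recently stimulated-like cells (20.2 and 3.35 CPM). Irf4 did in Capn3-led (4.15 and 9.31 CPM) and interferon-response-like cells (17.5 and 6.72 CPM). Resting on 0 UMIs, these intervals are too wide to tell such levels from background. Prdm1 in Ccl5-led cells and Irf4 in recently stimulated-like cells lay above them. Tbx21 was at 6.86 CPM (0.17 to 38.2) in the erythroid-like cells of CD25KO and 4.70 CPM (0.12 to 26.2) in those of CD25WT, from 1 UMI each. These intervals cover the level of Tbx21 over all T cells and in every state where it had a UMI, central-like cells of CD25WT included. Resting on 1 UMI each, they are too wide to tell those levels from background. With both libraries together the interval was 0.68 to 20.1 CPM in erythroid-like cells and 0 to 10.4 CPM in B-like cells (0 UMIs). Tbx21 in the Ifitm1-led effector-like cells of CD25KO, at 27.9 CPM from 55 UMIs, lay above both. It lay within the interval of the myeloid-like cells of CD25KO (4.62 to 65.5 CPM, from 3 UMIs). Runx2 had 0 UMIs in the erythroid-like cells of CD25KO and 2 in those of CD25WT, and Runx3 had 0 and 1. Their intervals there were 0 to 25.3 CPM in CD25KO. In CD25WT they were 1.14 to 33.9 CPM for Runx2 and 0.12 to 26.2 CPM for Runx3. Runx2 in recently stimulated-like cells, at 22.8 CPM in CD25KO and 8.84 CPM in CD25WT, lay within them.

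Within states the differences between the libraries varied by factor and by state. Of 72 ratios of a factor within a state, 68 could be formed from UMIs in both libraries.

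Batf was at least 1.5-fold higher in CD25KO in 7 of the 9 states, of which the recently stimulated-like, Ccl5-led and Ces2c-led cells had a CD25KO level above the erythroid-like interval. In Il18r1-led, Capn3-led and interferon-response-like cells the levels of CD25WT, at 53.5, 59.4 and 40.7 CPM, lay in that interval too. The ratio of Batf in erythroid-like cells, given above, was larger than its ratio in each of the 9 states. In B-like cells that ratio was 0.55 (-1.16 to 2.36). Of all genes with a mean of 10 CPM in the state, the share 1.5-fold higher was 4.19% in Capn3-led, 4.97% in Il18r1-led, 4.61% in Ces2c-led and 7.76% in follicular regulatory-like cells. It was 8.82% and 9.59% in the Satb1-led and Jchain-led central-like cells, 8.69% in recently stimulated-like, 10.8% in Ccl5-led and 11.3% in interferon-response-like cells. The log2 ratio of Batf was 1.35 (1.21 to 1.49) in recently stimulated-like cells, 1.14 (0.71 to 1.59) in the Ccl5-led effector-like cells, 1.10 (0.86 to 1.34) in the Il18r1-led cells and 0.80 (0.55 to 1.07) in the Ces2c-led cells. In follicular regulatory-like cells it was 0.32 (0.03 to 0.62). In the Satb1-led central-like cells it was 0.17 (-0.32 to 0.63).

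Maf behaved differently, with little distance between the libraries where it was most abundant. Its log2 ratio was 0.08 (-0.04 to 0.19) in follicular regulatory-like cells, -0.08 (-0.19 to 0.03) in Ces2c-led cells and 0.16 (0.03 to 0.29) in the Ccl5-led effector-like cells. It was 1.24 (1.14 to 1.34) in recently stimulated-like cells, 1.41 (1.20 to 1.62) in interferon-response-like cells and 0.73 (0.56 to 0.90) in Capn3-led cells.

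Prdm1 likewise was close in the Ccl5-led effector-like cells, where its level was highest, at a log2 ratio of 0.15 (-0.35 to 0.69). Its largest ratio was in recently stimulated-like cells, at 2.59 (1.69 to 3.64), from 108 UMIs or 20.2 CPM in CD25KO and 11 UMIs or 3.35 CPM in CD25WT. Both levels lay within the erythroid-like intervals given above. Runx2 was higher in the same state, at 1.37 (0.77 to 2.01), and in the Il18r1-led cells, at 1.20 (0.70 to 1.73). Runx3 was at 0.60 (0.16 to 1.06) in recently stimulated-like cells and 0.35 (0.12 to 0.58) in the Il18r1-led cells.

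Id2 and Irf4 did not keep 1 direction. Id2 was higher in CD25KO in the Ccl5-led effector-like cells, at a log2 ratio of 0.75 (0.48 to 1.02), and in the Il18r1-led cells, at 0.63 (0.48 to 0.78). It was lower in the Ces2c-led cells, at -0.23 (-0.43 to -0.03), and did not differ beyond counting error in follicular regulatory-like cells, at -0.29 (-0.79 to 0.22). Irf4 was higher in recently stimulated-like cells, at 0.52 (0.28 to 0.76), and lower in the Capn3-led cells, at -1.17 (-2.14 to -0.20), from 19 UMIs in CD25KO and 21 in CD25WT.

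**Figure D3:**
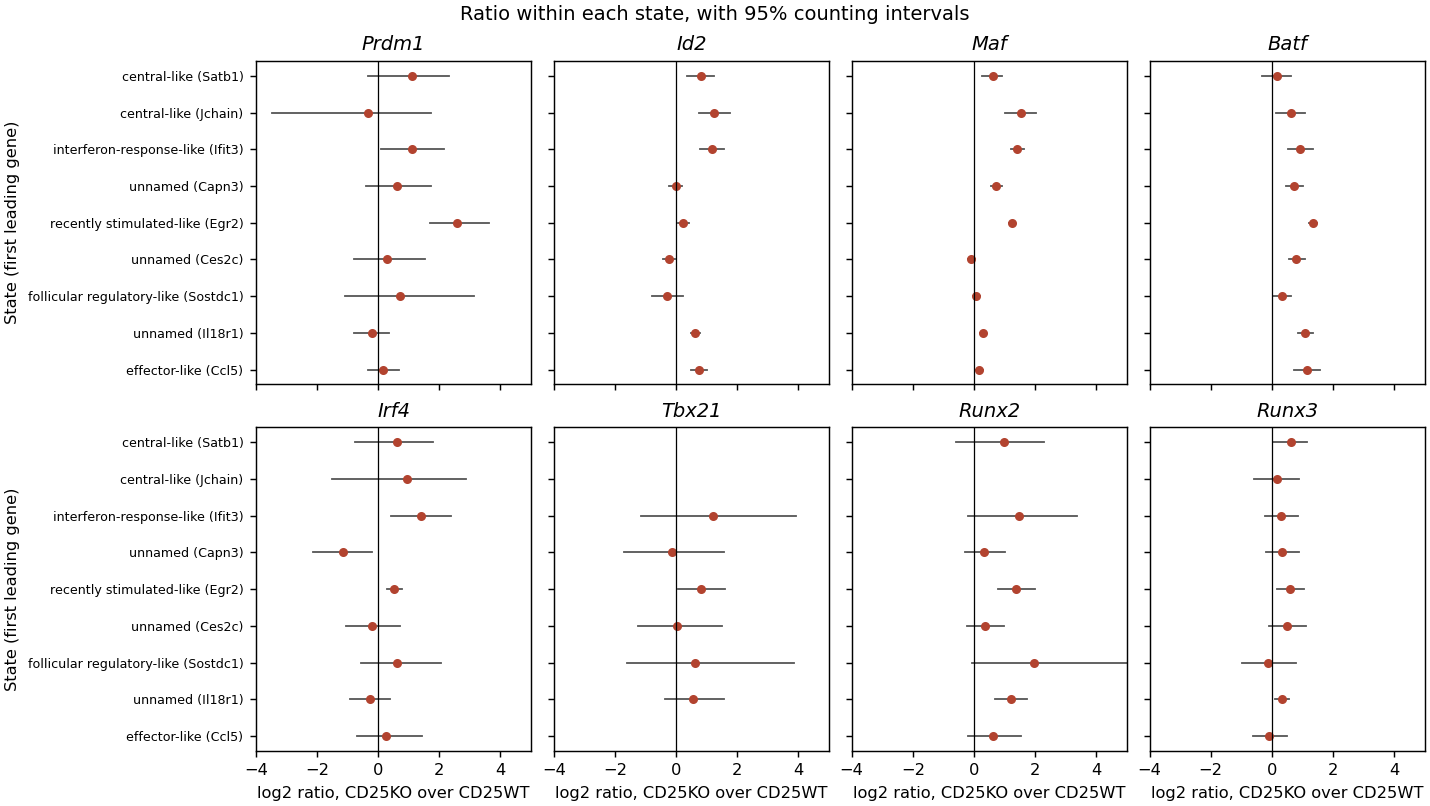
Log2 ratio of CD25KO over CD25WT for each factor within each of the 9 states, with 95% counting intervals (drawn within the axis limits; a state with 0 UMIs in a library has no point). The points of Batf all lie at or right of 0, those of Maf lie near 0 in the Ces2c-led, follicular regulatory-like and effector-like cells, and most Tbx21 intervals cross 0.

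To set the mix of states apart from the level within them, the CD25KO levels of the 14 T cell clusters were weighted by the CD25WT share of each cluster. At that fixed mix 3 of the 8 factors stayed at least 1.5-fold higher in CD25KO, against 2.51% of genes. These were Runx2 (log2 ratio 0.88), Batf (0.87) and Tbx21 (0.66). The others stood at 0.57 for Prdm1, 0.56 for Maf, 0.51 for Runx3, 0.49 for Id2 and 0.40 for Irf4. The median over all genes at this mix was 0.08. Tbx21 lay under the minimum of 10 CPM that these genes passed. Among the 7 factors that passed it the count was 2. In each central-like cluster Tbx21 had 0 UMIs in CD25KO and 2 in CD25WT, and values at the fixed mix have no interval.

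The reverse weighting, with CD25WT levels at the CD25KO mix, gave the part that follows the state shares alone. It was 1.40 for Prdm1, 1.29 for Maf, 1.22 for Runx2, 0.93 for Id2, 0.89 for Tbx21, 0.73 for Irf4, 0.67 for Batf and 0.46 for Runx3. For Prdm1, Maf, Runx2, Id2, Tbx21 and Irf4 the value of the mix alone was larger than that at the fixed mix, and for Batf and Runx3 it was smaller. With the CD25KO shares as the fixed mix, Tbx21 stood at 1.18, above its value for the mix alone, and Runx3 at 0.44, below it, so the order of these 2 depends on the shares used. With states set by markers in single cells in place of clusters, all 8 factors stayed at least 1.5-fold higher at the fixed mix, from 0.73 for Irf4 to 1.46 for Runx2, against 6.27% of genes and a median of 0.16 over all genes, and 26.6% of CD25KO and 26.9% of CD25WT cells met no marker rule there. With the clusters that come over 80% from 1 library left out, a choice made after seeing the data, 5 of the 8 were at least 1.5-fold higher over all remaining T cells, against 3.61% of genes. The log2 ratios were then 1.16 for Batf, 0.99 for Runx2, 0.84 for Tbx21, 0.66 for Maf, 0.61 for Prdm1, 0.37 for Runx3, 0.31 for Irf4 and 0.25 for Id2.

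**Figure D4:**
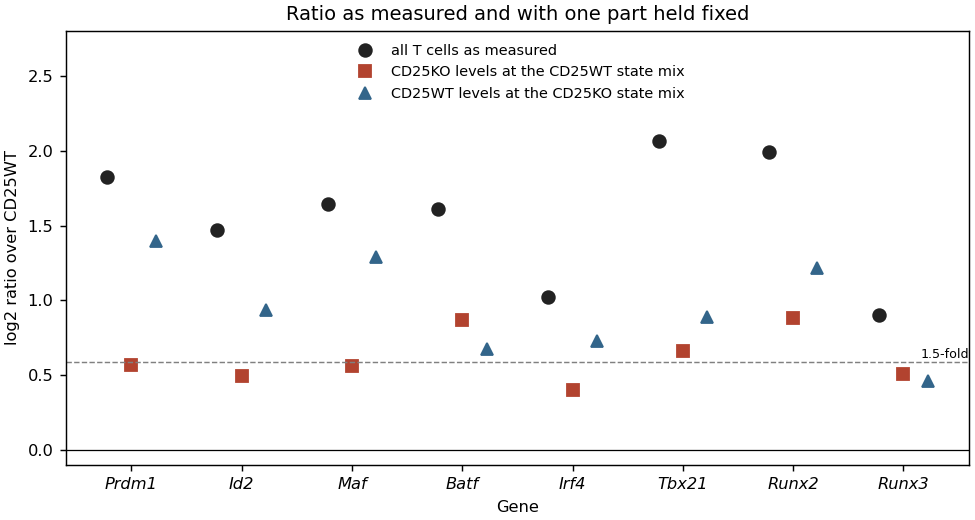
Log2 ratio over CD25WT of each factor over all T cells as measured (circles), with CD25KO levels at the CD25WT mix of states (squares) and with CD25WT levels at the CD25KO mix (triangles); the dashed line marks 1.5-fold. Squares lie above the line for Batf, Tbx21 and Runx2, and triangles lie above squares for all but Batf and Runx3.

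Single cells showed the same order of libraries. With each cell thinned to 2000 UMIs, which left out 358 CD25KO and 71 CD25WT cells, Maf was detected in 54.0% (52.8 to 55.2) of CD25KO and 21.2% (20.1 to 22.2) of CD25WT T cells. Without thinning these shares were 68.7% and 31.6%. Id2 was detected in 25.1% (24.0 to 26.2) of thinned CD25KO and 11.6% (10.8 to 12.4) of thinned CD25WT cells, and Batf in 25.0% (24.0 to 26.1) and 9.66% (8.92 to 10.4). Of 30 thinned erythroid-like cells, 6.67% had a Maf UMI, 6.67% an Id2 UMI and 10.0% a Batf UMI, so the Batf share of CD25WT is not above this background. Before thinning, 6.45% of the 31 cells had a Tbx21 UMI. A Runx2 UMI was in 6.45% of the 31 cells before thinning and in 3.33% of the 30 thinned cells. The thinned share lay above the thinned Runx2 share of CD25WT but rests on 1 cell. The median depth before thinning was 9796 UMIs in erythroid-like cells. The other factors were detected in few cells. Runx3 was found in 8.59% of CD25KO and 5.04% of CD25WT thinned cells, Runx2 in 4.95% and 1.36%, Prdm1 in 4.47% and 1.14%, Irf4 in 3.70% and 2.10%, and Tbx21 in 1.47% and 0.437%. The unthinned shares were 18.1% and 12.7% for Runx3, 11.2% and 3.52% for Runx2, 8.72% and 2.95% for Prdm1, 7.29% and 4.53% for Irf4, and 3.65% and 1.06% for Tbx21.

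Counted together, thinned cells held a mean of 1.27 of the 8 factors in CD25KO and 0.525 in CD25WT. None was detected in 25.3% (24.3 to 26.4) of CD25KO and 61.4% (60.2 to 62.7) of CD25WT cells. At least 4 were detected in 2.27% (1.92 to 2.66) of CD25KO and 0.252% (0.141 to 0.415) of CD25WT cells. The mean was 1.92 in CD25KO and 1.64 in CD25WT within the Ccl5-led effector-like cells, and 0.417 and 0.258 within the Satb1-led central-like cells.

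**Figure D5:**
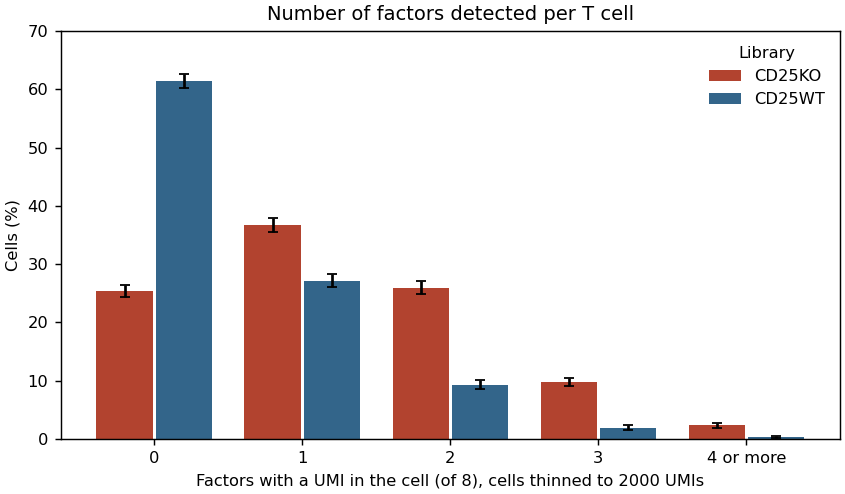
Percent of T cells, thinned to 2000 UMIs, by the number of the 8 factors with a UMI in the cell, for CD25KO (left bars) and CD25WT (right bars), with 95% Clopper-Pearson intervals. Cells with none of the factors make up 25.3% of CD25KO and 61.4% of CD25WT, and the order of the libraries turns from 1 factor upward.

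Batf and Irf4 encode proteins that bind composite DNA elements together. Their detection in the same cells is given over all T cells and within states. Of thinned CD25KO cells with an Irf4 UMI, 44.0% (37.6 to 50.5) had a Batf UMI, against 24.3% (23.3 to 25.4) of those without. In CD25WT these shares were 25.6% (18.2 to 34.2) and 9.32% (8.58 to 10.1). Within the recently stimulated-like cluster the shares were 55.0% (46.0 to 63.7) and 40.2% (36.7 to 43.8) in CD25KO, and 42.9% (29.7 to 56.8) and 20.2% (16.3 to 24.6) in CD25WT. The Il18r1-led cells had the other order, with overlapping intervals in both libraries. The shares there were 6.25% of 16 cells (0.158 to 30.2) and 19.4% (16.8 to 22.1) in CD25KO. In CD25WT they were 0% of 17 cells (0 to 19.5) and 9.05% (7.03 to 11.4). In the Satb1-led cells of CD25WT the shares were 7.69% of 13 cells and 7.34%. In CD25KO they were 36.4% and 29.2% in the Ccl5-led cells and 42.9% and 28.6% in the Ces2c-led cells, with overlapping intervals. Prdm1 was found in 7.001% (6.18 to 7.89) of CD25KO cells with Maf and 1.5015% (1.10 to 2.00) of those without, and in 2.22% (1.48 to 3.20) and 0.852% (0.609 to 1.16) in CD25WT.

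Over 21 sums of a state in a library with at least 100 cells, Id2 and Runx2 had the most similar levels of any pair of members (Pearson r = 0.95 of log2 (CPM + 10)), followed by Maf and Batf (r = 0.84). Irf4 and Runx3 had the least similar (r = 0.08). These sums share their library and depth, and the correlations are given as a description. Among 6745 other genes, the most like Prdm1 were Fgl2, a secreted suppressor molecule (r = 0.94), Lilrb4a, an inhibitory receptor gene (0.92), and Arl5a (0.90). Maf was most like the costimulatory receptor gene Icos (0.97), Cltc (0.96) and Nucb1 (0.95), and Irf4 most like the receptor-induced Egr3 (0.91), Hdac7 (0.90) and Eif5b (0.89). Batf was most like Top1 (0.96), Rilpl2 (0.95) and Larp1b (0.94). Id2 was most like Glrx (0.93), the chemokine receptor gene Cxcr3 (0.93) and Cldnd1 (0.92). Runx2 was most like Cldnd1 (0.93), Gata3 (0.92) and Cers5 (0.91). Runx3 was most like Sgms1 (0.92), Il1rl1, which encodes the interleukin-33 receptor ST2 (0.91), and Il18r1 (0.91), and Tbx21 most like Apobec2, Bak1 (both 0.91) and Snf8 (0.89).

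Partners and paralogs of the factors differed less than the factors. Of 20 such genes above the CPM minimum, 9 were higher by 1.5-fold or more in CD25KO, against 10.5% of genes. Lower by as much was 1 of them, against 1.49% of genes. Their log2 ratios had a median of 0.39, against a median of 1.61 for the 7 factors measured at that level. Farthest apart were Bhlhe40, an activation-induced repressor (2.26, 2.11 to 2.42), Jun, an AP-1 subunit that pairs with Batf (-1.73, -1.88 to -1.58), Nfil3 (1.61, 1.36 to 1.87) and Ahr (1.54, 1.38 to 1.70). Cbfb and Id3 are named after their values were seen. Cbfb, the partner of the Runx proteins, was at 53.2 CPM in CD25KO and 47.4 CPM in CD25WT, and Id3, the paralog of Id2, at 167 and 169 CPM.

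Of 12 transcription factors of quiescent T cells, 4 were at least 1.5-fold lower in CD25KO, against 1.49% of genes. None was at least 1.5-fold higher, against 10.5% of genes, and a list of 12 is too short to set these apart. The other 8 lay between -0.54 and 0.28 on the log2 scale. The 4 were Bach2, a repressor that restrains effector genes (log2 ratio -1.09, -1.21 to -0.98), Satb1 (-1.002, -1.06 to -0.94), Lef1 (-0.70, -0.76 to -0.65) and Foxp1 (-0.61, -0.65 to -0.57). At the fixed mix of states the median of the 12 was 0.14, against -0.35 over all T cells. The medians over all genes were 0.08 and 0.21. Satb1 and Lef1 also served to name the central-like clusters.

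Of 30 effector genes linked to these factors 20 were measured. Of these, 16 were at least 1.5-fold higher in CD25KO, against 10.5% of genes, and none at least 1.5-fold lower, against 1.49%. The median of their log2 ratios was 1.63 over all T cells and 0.47 at the fixed mix of states. The farthest apart were Gzmb, which encodes granzyme B (4.84, 4.43 to 5.29, from 1422 UMIs in CD25KO and 49 in CD25WT), the chemokine gene Ccl5 (2.94, 2.85 to 3.03), Fgl2 (2.78, 2.52 to 3.06) and the chemokine receptor gene Cxcr6 (2.42, 2.23 to 2.62). Gzmb, Ccl5 and Fgl2 were among the markers used to name effector-like clusters. Of 15 genes of the interleukin-2 receptor and STAT5 pathway, 5 were lower by 1.5-fold or more, against 1.49% of genes. Il2ra is among the 5. It is the floxed gene and its product was gated low in CD25KO alone, so its place in the count is set by the design. Higher by as much was 1, against 10.5% of genes, and the median log2 ratio was -0.17. Il2ra itself stood at -1.95 (-2.04 to -1.85), Lrrc32 at -1.56 (-1.75 to -1.37), Myc at -1.42 (-1.56 to -1.27) and the survival gene Bcl2 at -1.33 (-1.38 to -1.29).

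Cells of the same library were also split by whether an Il2ra UMI was found after thinning. In CD25WT, Maf was at 148 CPM in the 1074 cells with Il2ra and 233 CPM in the 4880 without, a log2 ratio of -0.66 (-0.84 to -0.49). In CD25KO, Maf was at 668 CPM in the 402 cells with Il2ra and 680 CPM in the 6109 without, a log2 ratio of -0.03 (-0.16 to 0.10). Irf4 in CD25KO was higher in cells with Il2ra, at 39.8 against 22.2 CPM and a log2 ratio of 0.84 (0.27 to 1.38). In CD25WT its ratio was 0.30 (-0.30 to 0.86). Tbx21 had the largest ratio in CD25KO, at 1.18 (0.22 to 2.03), from 13 UMIs in cells with Il2ra. In CD25WT it stood at -0.08 (-1.83 to 1.34). Id2 is given below, and in CD25KO the intervals of Prdm1, Batf, Runx2 and Runx3 covered 0. The difference between the libraries in these ratios was not tested.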

How the data were processed

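The authors deposited raw UMI counts for each gene in each barcode, not normalized. The file headers name Cell Ranger 6.0.0, and mm10 comes from the submitters' processing notes. No source used here names the annotation. The members, gene lists, markers and alternatives were chosen with earlier results of these data known.

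Of the barcodes, 578 (7.68%) in CD25KO and 510 (7.70%) in CD25WT failed the filter. Scrublet (Scanpy 1.11.5) called 1 doublet in each library, which was taken as a failure of the caller, so doublets remain in the main values.

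Cells of both libraries were clustered as 1 set on 2000 variable genes, 30 principal components and 15 neighbours, using leidenalg 0.10.2 at a resolution of 1. Left out of the features were the 8 factors, Il2ra, antigen receptor segments, sex-linked marker genes and genes for ribosomal proteins, haemoglobins and mitochondrial transcripts. A cluster was named from a class with at least 3 of its markers among the 10 leading genes (2 for other lineages) and more than any other class. This rule was set after the clusters had been seen. B-like, myeloid-like and erythroid-like clusters were left out of the T cells. Clusters without a name were counted as T cells by default, and held 44.4% of these cells in CD25KO and 33.9% in CD25WT.

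UMIs were summed over cells and scaled to CPM with all genes in the total. T cells of the CD25KO library held 35277550 UMIs and those of CD25WT 34927428. Intervals are at 95%: Poisson for sums, exact conditional (binomial) for ratios, Clopper-Pearson for shares. With 1 library per group, cells are not replicates and no p-value was computed. The ratio, interval and weighting steps were tested on simulated data. Genes named besides the 8 are the 3 with the highest correlation to each member over states, the 4 with the largest ratio in each list, Il2ra and Foxp3. Positions are from GENCODE mouse release 21, on the same build.

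Alternatives were TMM (edgeR 4.0.16) and median-of-ratios factors, other totals, cell filters, thinning, doublet removal, subsets of cells and other definitions of states.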

Additional observations from a re-analysis of the deposited data

Results flagged for a closer look

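Id2 and Irf4 were each higher in CD25KO in some states and lower in another beyond counting error, and the difference between states was not tested. The log2 ratio of Id2 was -0.23 in the Ces2c-led cells and 1.26 in the Jchain-led central-like cells, where its level lay within or below the interval of the erythroid-like cells. The log2 ratio of Irf4 was -1.17 in the Capn3-led cells and 1.39 in the interferon-response-like cells, from 28 UMIs in CD25KO and 15 in CD25WT. Its levels in both states lay within the wide intervals of the erythroid-like cells, where it had 0 UMIs.

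Id2 also differed in direction between the libraries when cells were split by Il2ra. In cells with an Il2ra UMI over cells without, its log2 ratio was 0.40 (0.20 to 0.59) in CD25KO and -0.87 (-1.15 to -0.60) in CD25WT. The level was 302 against 229 CPM in CD25KO and 57.3 against 105 CPM in CD25WT, and the difference was not tested.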

How the results depend on the processing

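No paired analysis was possible because each group is 1 library, and for the same reason no replicate could be left out. All 8 factors were at least 1.5-fold higher in CD25KO under each of 13 alternatives, and 6 to 8 were at least 2-fold higher. The genes at least 1.5-fold higher ranged from 393 of 7117 with TMM to 1240 of 7147 in cells with a Foxp3 UMI. At 2-fold the share of genes was taken for the main setting only (3.59%). Leaving out clusters over 80% from 1 library was added after seeing the data. Of the 8, 5 were then at least 1.5-fold higher, against 262 of 7259 genes, and 1 at least 2-fold higher. Id2 had the lowest log2 ratio there, at 0.25 in place of 1.47. In cells with a Foxp3 UMI, 687 in CD25KO and 965 in CD25WT, the log2 ratio of Prdm1 was 2.97 in place of 1.83, that of Maf 2.27 in place of 1.65 and that of Tbx21 2.72 in place of 2.07. At the fixed mix of states the count of 3 became 5 at Leiden resolution 0.5, against 202 of 6908 genes, and 5 at resolution 1.5, against 175 of 6958. It was 8 with marker rules in single cells, against 442 of 7051 genes. Under the other 6 settings it was 2 or 3, against 62 of 6715 genes (TMM) to 182 of 6938 (states under 100 cells left out). Batf and Runx2 stayed at least 1.5-fold higher under all 9 settings, Tbx21 under 7. At the fixed mix Irf4 was lowest, at 0.03 with 15 principal components and 0.17 with TMM, and no ratio of a factor turned below 0. The share of all genes at least 1.5-fold higher was 28.5% with no CPM minimum and 9.84% with a minimum of 20 CPM. Depth limits Tbx21, Irf4, Prdm1 and Runx2 within states, where many ratios rest on fewer than 20 UMIs in a library.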

Other observations

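The T cell clusters with under 100 cells in a library carry further values of the factors. A second effector-like cluster, led by Ifitm1, Ifitm3 and Lgals3, held 279 CD25KO and 22 CD25WT cells. Id2 was at 831 CPM (792 to 872) there in CD25KO and 448 CPM (356 to 556) in CD25WT, above its level in each of the 9 larger states of the same library. Runx2 was at 95.8 CPM (82.6 to 110) and 71.0 CPM (37.8 to 121), and Runx3 at 137 CPM (121 to 154) and 81.9 CPM (45.9 to 135). Prdm1 was at 28.9 CPM and Tbx21 at 27.9 CPM in CD25KO, and each rested on 1 UMI in CD25WT. A cluster without a name, led by Tmem176a and Tmem176b, held 20 CD25KO and 66 CD25WT cells. Id2 was at 746 CPM (590 to 931) in CD25KO and 956 CPM (867 to 1051) in CD25WT there, while Batf was at 38.2 and 49.3 CPM, within or below the interval of the erythroid-like cells.

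The cycling-like cluster held 234 CD25KO and 95 CD25WT cells, with a median of 14316.5 and 13040 UMIs. Runx3 was at 68.9 CPM (60.7 to 78.0) in CD25KO and 27.8 CPM (19.6 to 38.3) in CD25WT, and Id2 at 242 CPM (226 to 258) and 107 CPM (90.5 to 126). Prdm1 was at 18.3 and 18.0 CPM, a log2 ratio of 0.02 (-0.67 to 0.76).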
